A study of Mus musculus with 8 samples.

Results

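The genes of the GDNF receptor and of spermatogonial stem cells were read in total RNA of germ cells sorted from fetal mouse testes. The set was chosen by name as Gfra1, Ret, Gdnf, Etv4, Etv5, Bcl6b, Zbtb16, Uchl1, Foxo1 and Taf4b, which are 10 of the 55487 genes in the deposited table of read counts. All 10 were present and all 10 had enough reads to be tested. The groups were 4 libraries labelled WT, from Oct4-eGFP+/+ littermates, and 4 labelled KO, from Rhox10-null;Oct4-eGFP+/+ mice, all on C57BL/6. Either group therefore carried the Oct4-eGFP reporter, whose fluorescence under Oct4 (Pou5f1) control marks fetal germ cells, and cells were collected by fluorescence-activated sorting. The fetal age, the number of animals behind a library and any pooling were not given in the sources used here, so p-values measure the spread between libraries, which may be technical.

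GDNF is a secreted growth factor that Sertoli and peritubular myoid cells of the testis supply to spermatogonial stem cells. It binds the membrane-anchored co-receptor GFRA1, which then engages the receptor tyrosine kinase RET, and in cultured stem cells this signal maintains transcription factors such as ETV5 and BCL6B. The same receptor pair acts outside the testis, in the nephric duct and ureteric bud and in neural crest cells of the gut, so reads of these genes do not by themselves come from germ cells.

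The libraries held 16346977 to 20311338 counts. Rhox10, the homeobox gene named in the genotype, had 17 to 25 counts in the WT-labelled and 10 to 22 in the KO-labelled libraries (log2 fold change KO over WT -0.28, edgeR adjusted p = 0.767), so the reads do not check the labels. Germ cell genes were present, but genes of testicular somatic cells were more abundant per length. Levels are given as CPM, the count scaled to library size, or as CPM per kb of the gene's exons. Ddx4, the germ cell RNA helicase gene, averaged 14.6 CPM per kb over the 8 libraries. Amh, the Sertoli cell hormone gene, averaged 84.3, Cyp17a1, a steroid enzyme gene of Leydig cells, 452, and Col1a1, a collagen gene of interstitial cells, 447 CPM per kb. The median over 8 germ cell markers was 5.15 CPM per kb, against 21.9 for 6 Sertoli, 118 for 6 Leydig and 34.4 for 9 peritubular and interstitial markers. RNA of testicular somatic cells was therefore present in every library labelled as purified germ cells, and no marker of the 12 cell types examined was at 0 over all libraries. Fewer cells of a type and less RNA per cell cannot be told apart in such bulk samples.

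**Figure D1:**
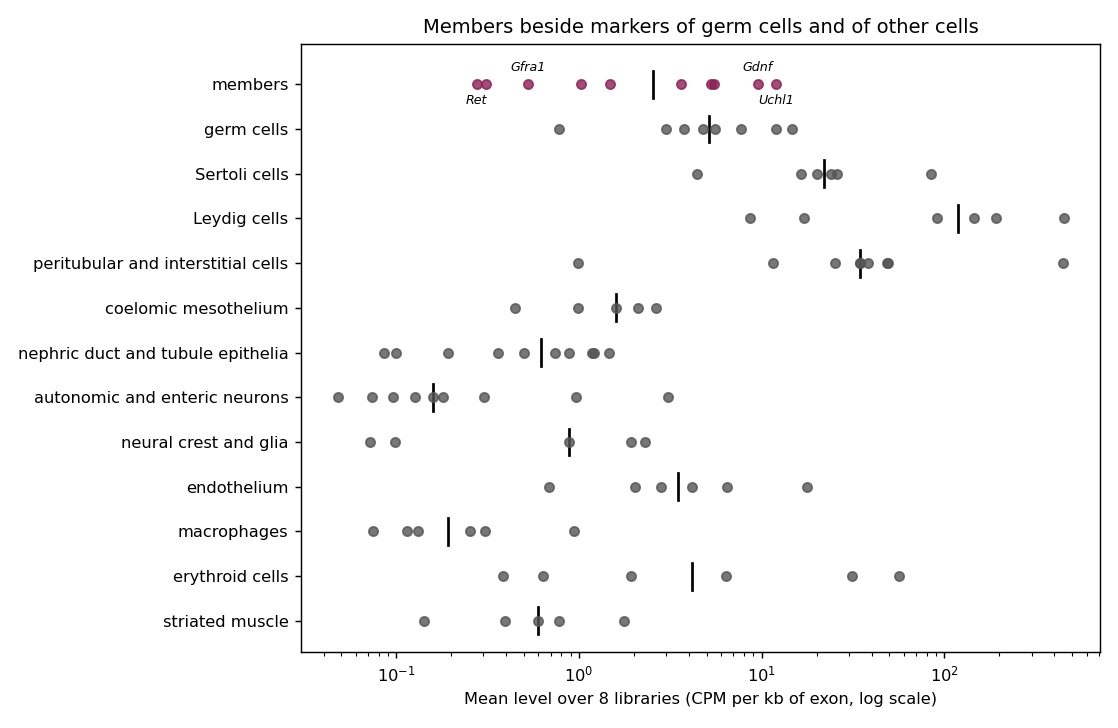
Mean level over the 8 libraries in CPM per kb of exon on a log axis, 1 point per gene, for the 10 members (purple) and for marker genes of 12 cell types (grey), with the median of each row as a vertical line. The germ cell markers have a median of 5.15, below the 21.9 of Sertoli and the 118 of Leydig cell markers, and Gdnf (9.51) and Uchl1 (12.0) lie at the upper end of the members.

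The members spanned a wide range of levels. Per length, Uchl1 was the highest at 12.0 CPM per kb (lowest to highest library 10.3 to 14.2), followed by Gdnf at 9.51 (9.14 to 10.1). Etv5 at 5.49 (4.69 to 6.55) and Foxo1 at 5.25 (4.94 to 5.58) overlapped each other, and Taf4b came next at 3.61 (3.08 to 4.22). Etv4 at 1.48 (1.29 to 1.67) and Bcl6b at 1.03 (0.807 to 1.33) also overlapped. The receptor genes were among the lowest members. Gfra1 was at 0.529 CPM per kb (0.285 to 0.786), and Zbtb16 at 0.309 (0.199 to 0.451) and Ret at 0.276 (0.163 to 0.371) overlapped at the bottom of the order. In the WT-labelled libraries Gfra1 (0.300) and Ret (0.250 CPM per kb) were thus near each other, and in the KO-labelled libraries Gfra1 stood at 0.758 and Ret at 0.303.

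The comparison of KO-labelled with WT-labelled libraries asked whether genes of this pathway differ when Rhox10 is mutated. Gfra1 was 2.52-fold higher and Uchl1, a ubiquitin hydrolase gene of spermatogonia and neurons, was 0.818 of its WT level in the KO-labelled libraries, and the other 8 members did not pass. The ligand gene Gdnf and the kinase gene Ret were among those that did not pass. Over all 23190 genes tested, edgeR's quasi-likelihood test called 5.14% (Benjamini-Hochberg threshold 0.05). Genes called higher with the KO label were 2.35% of those tested, and genes called lower 2.80%. Of the 10 members 1 was higher and 1 lower. The median log2 fold change of the members was 0.11, beside 0.002 over all genes tested. The CPM of the 2 groups did not overlap for 2 members, beside 9.44% of all genes tested.

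**Figure D2:**
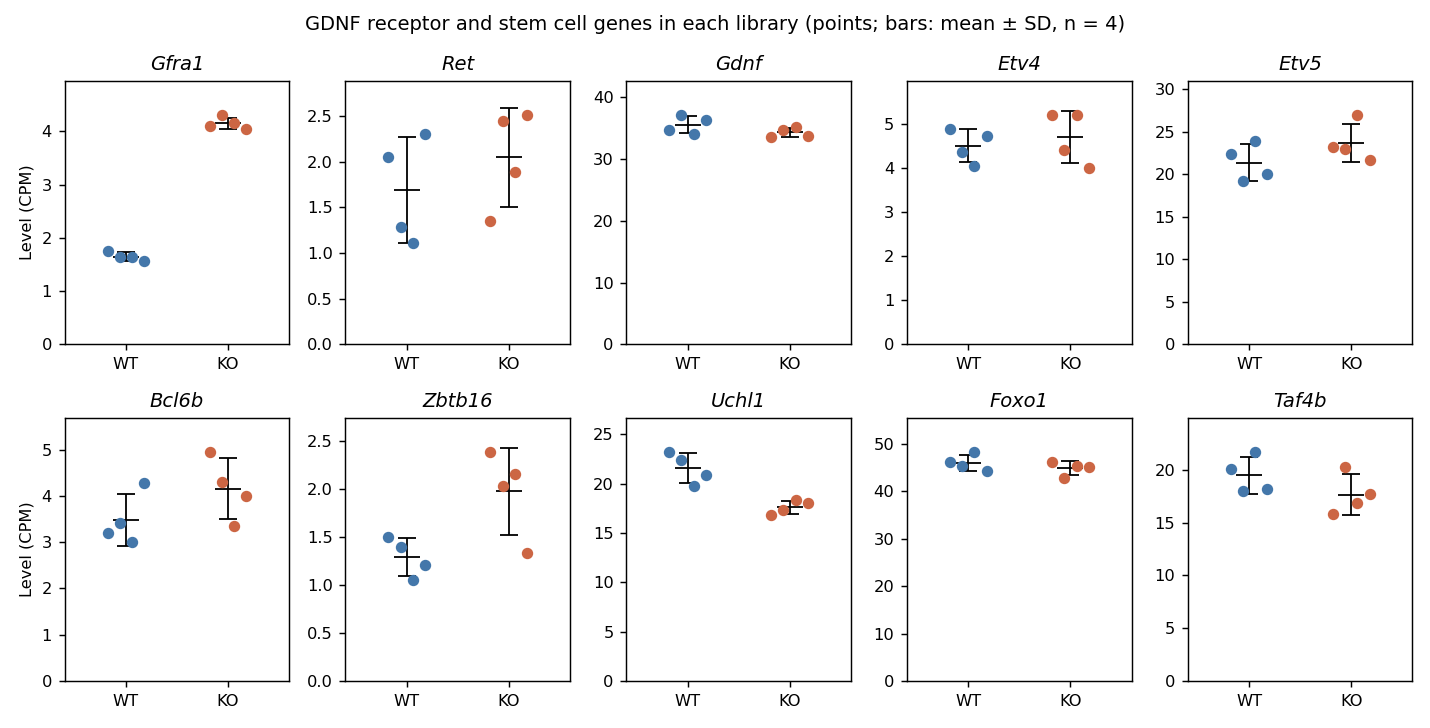
Level of each member in each library in CPM (y axis from 0), with the 4 WT-labelled (blue) and 4 KO-labelled (orange) libraries as points and the mean ± SD as bars. The groups separate for Gfra1 (1.56 to 1.75 against 4.05 to 4.30 CPM) and for Uchl1 (19.8 to 23.2 against 16.8 to 18.3 CPM) and overlap for the other 8 members.

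The ligand gene Gdnf (ENSMUSG00000022144, chromosome 15, 7810846 to 7837575, plus strand, build GRCm38 throughout) was read at 549 to 748 counts per library. Its levels were 34.8, 37.1, 34.1 and 36.3 CPM with the WT label and 33.6, 34.8, 35.2 and 33.8 CPM with the KO label. The groups overlapped, with a difference of -0.05 on the log2 scale with an interval of -0.16 to 0.06 (edgeR adjusted p = 0.747). Per length the ligand gene, at 9.51 CPM per kb, was far above its receptor genes. Sertoli cells, a known source of GDNF, were represented by all 6 of their markers, from Dhh, the desert hedgehog gene, at 4.42 to Amh at 84.3 CPM per kb. Peritubular and interstitial cells were represented by all 9 of theirs, from Cnn1, a smooth muscle calponin gene, at 0.991 to Col1a1 at 447 CPM per kb. The ratio of Gdnf to Amh in CPM was 0.235 to 0.271 in the WT-labelled and 0.237 to 0.255 in the KO-labelled libraries. The summed level of the Sertoli markers was 403.2 to 417.6 CPM in WT-labelled and 387.5 to 403.0 in KO-labelled libraries (exact two-sided permutation p = 0.0286, adjusted 0.0490), and the part of these cells in the Gdnf reads was not tested.

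The co-receptor gene Gfra1 (ENSMUSG00000025089, chromosome 19, 58235604 to 58455909, minus strand) had 29, 33, 31 and 27 counts in WT replicates 1 to 4 and 67, 72, 79 and 79 in KO replicates 1 to 4. Scaled to library size these were 1.75, 1.64, 1.63 and 1.56 CPM with the WT label and 4.10, 4.30, 4.15 and 4.05 CPM with the KO label. Every KO-labelled library was above every WT-labelled one. The libraries of a group lay close together, which at counts this low may be chance. The means were 1.64 ± 0.0759 and 4.15 ± 0.110 CPM (SD, n = 4), and the log2 fold change was 1.33 with a standard error of 0.191 and a 95% interval of 0.96 to 1.71 (edgeR adjusted p = 4.96e-09). With each library left out in turn the change stayed between 1.31 and 1.36 and was called each time. The antisense gene Gm16277, which overlaps Gfra1, had 0 counts.

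Ret (ENSMUSG00000030110, chromosome 6, 118151745 to 118197718, minus strand), the kinase gene of the same receptor, did not pass. Its levels were 2.05, 1.29, 1.11 and 2.31 CPM in the WT-labelled and 1.35, 2.45, 1.89 and 2.51 CPM in the KO-labelled libraries. Low and high libraries occurred in either group. The log2 fold change was 0.30, with a 95% interval of -0.16 to 0.76, which reaches a 1.70-fold rise (edgeR adjusted p = 0.596). Ret rests on 21 to 49 counts per library.

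Uchl1 (ENSMUSG00000029223, chromosome 5, 66676091 to 66687234, plus strand) had 362 to 451 counts in WT-labelled and 274 to 352 in KO-labelled libraries. Its levels were 23.2, 22.4, 19.8 and 20.9 CPM in the WT-labelled libraries and 16.8, 17.3, 18.3 and 18 CPM in the KO-labelled ones. The highest KO-labelled library was below the lowest WT-labelled one. The means were 21.6 ± 1.5 and 17.6 ± 0.709 CPM (SD, n = 4), and the log2 fold change was -0.29 with a standard error of 0.0734 and an interval of -0.44 to -0.15 (edgeR adjusted p = 0.00396). Leaving out a library gave adjusted p of 0.00238 to 0.0358. The call was lost when the mean of all marker lists other than germ cells entered as a covariate (-0.29, edgeR adjusted p = 0.0916). This mean, named somatic and blood markers here, includes the duct and tubule list. The call was also lost with the mean of duct and tubule markers alone as a covariate (-0.28, edgeR adjusted p = 0.814). The standard error then widened from 0.0734 to 0.208. This duct covariate separates the groups and left 82 genes called in all. The part of duct cells in the Uchl1 difference was not tested. The antisense neighbour Uchl1os had 18 counts in all against 2841 for Uchl1.

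The ETS and BTB zinc finger transcription factor genes of the set did not pass. Etv5 (ENSMUSG00000013089, chromosome 16, 22381309 to 22439719, minus strand), whose loss in mice depletes spermatogonial stem cells and which Sertoli cells also express, was at 22.3, 19.2, 23.9 and 20 CPM with the WT label and 23.2, 22.9, 26.9 and 21.7 CPM with the KO label. The highest library was KO replicate 3 and the groups overlapped, with a log2 fold change of 0.15 (interval 0.02 to 0.29, edgeR adjusted p = 0.248). With somatic and blood markers as a covariate it was 0.34 and called (adjusted p = 0.0139). Etv4 (ENSMUSG00000017724, chromosome 11, 101769742 to 101785371, minus strand), its close relative, which acts with it in the ureteric bud below RET, was at 4.05 to 4.88 CPM in WT-labelled and 4 to 5.20 in KO-labelled libraries (log2 fold change 0.06, interval -0.23 to 0.35, adjusted p = 0.903).

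Bcl6b (ENSMUSG00000000317, chromosome 11, 70224128 to 70229798, minus strand), a BCL6-related repressor gene of stem cells that endothelium also expresses, was at 3.19, 3.42, 3 and 4.28 CPM with the WT label and 4.95, 4.30, 3.36 and 4 CPM with the KO label. WT replicate 4 lay among the KO-labelled libraries, and the log2 fold change of 0.25 did not pass (interval -0.07 to 0.57, edgeR adjusted p = 0.483). Zbtb16 (ENSMUSG00000066687, chromosome 9, 48654297 to 48836222, minus strand), which encodes the self-renewal factor PLZF, was at 1.5, 1.39, 1.05 and 1.21 CPM with the WT label and 2.38, 2.03, 2.15 and 1.33 CPM with the KO label. Here 3 KO-labelled libraries were above all WT-labelled ones and KO replicate 4 lay among them. The log2 fold change was 0.61 (interval 0.11 to 1.10) and did not pass over all genes (edgeR adjusted p = 0.168, and 0.0813 without KO replicate 4). It rests on 20 to 41 counts per library.

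Foxo1 and Taf4b, a pair of factors needed to keep the male germ line, also did not pass. Foxo1 (ENSMUSG00000044167, chromosome 3, 52268336 to 52353221, plus strand), the PI3K-controlled forkhead gene of gonocytes and stem cells, was at 44.4 to 48.3 CPM in WT-labelled and 42.8 to 46.3 in KO-labelled libraries. Its log2 fold change of -0.04 had an interval of -0.13 to 0.06 (edgeR adjusted p = 0.815). Gm38034, which overlaps Foxo1 on the same strand, had 865 counts in all against 6584 for Foxo1, so reads shared by the pair are uncertain. Taf4b (ENSMUSG00000054321, chromosome 18, plus strand), which encodes a germ cell subunit of the TFIID complex, was at 20.1, 18, 21.7 and 18.2 CPM with the WT label and 15.8, 20.3, 16.9 and 17.7 CPM with the KO label. KO replicate 2 was among the higher libraries and the groups overlapped (log2 fold change -0.14, interval -0.29 to 0.01, adjusted p = 0.356). AC133172.1 overlaps it on the same strand, with 159 counts against 2692.

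**Figure D3:**
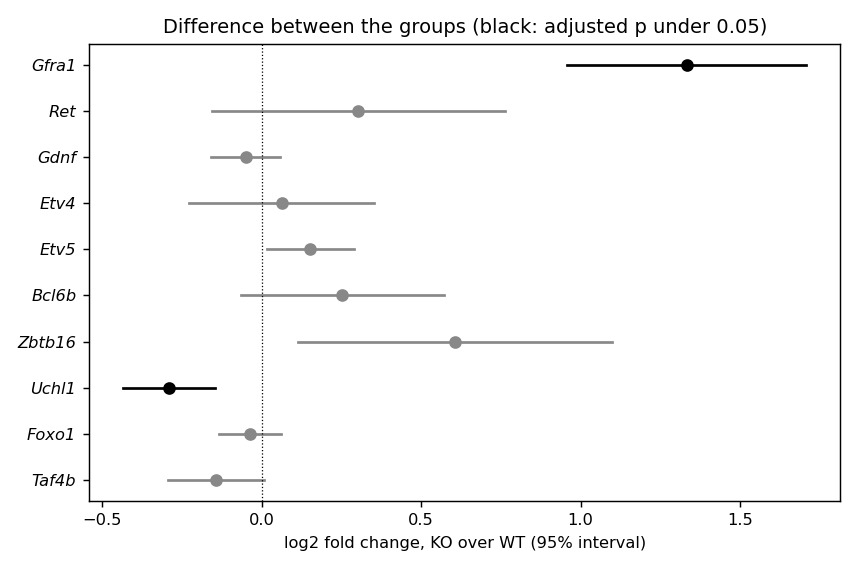
Log2 fold change of each member, KO-labelled over WT-labelled libraries (x axis), with its 95% interval from the edgeR fit, in black where the adjusted p was under 0.05. Gfra1 (1.33) and Uchl1 (-0.29) are the 2 members called, and the intervals of Gdnf and Foxo1 are the narrowest around 0.

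Genes known from nephric duct and tubule epithelia, where GFRA1 and RET act in development, were higher in the same libraries as Gfra1. Of 10 such markers 6 were called higher, 2 were tested and not called, and 2 had too few reads to be tested. The 2 not called were Gata3 (log2 fold change 0.244, edgeR adjusted p = 0.837) and Wnt11 (0.135, 0.749). The 2 not tested, Wnt9b and Calb1, averaged 0.494 CPM each with the WT label and 0.404 and 0.341 CPM with the KO label. None of the 10 was at 0 in all libraries. Pkhd1, the fibrocystin gene, rose from 1.34 ± 0.130 to 8.94 ± 1.19 CPM (SD, n = 4). Pax8 and Pax2, transcription factor genes of the nephric lineage, rose by 1.09 and 0.92 on the log2 scale, Cdh16, the kidney cadherin gene, by 1.34 and Krt7, a keratin gene of ducts, by 0.54. The summed level of the 10 markers was 23.47 to 26.6 CPM in WT-labelled and 45.73 to 52.19 CPM in KO-labelled libraries. The groups did not overlap (exact two-sided permutation p = 0.0286, the smallest that 70 splits allow, and 0.0490 adjusted over 12 marker lists). Leaving out any library other than WT replicate 3 put the adjusted p of each list that passed above the threshold, at 0.0571 for the duct list.

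Beside the summed duct markers, Gfra1 was 0.0587 to 0.0744 of their level in the WT-labelled and 0.0783 to 0.0896 in the KO-labelled libraries. KO replicate 1 had the lowest summed level of the duct markers among the KO-labelled libraries, 45.73 CPM, and a Gfra1 level of 4.10 CPM, between those of the others. This is 1 library with 67 Gfra1 counts, so it does not tell whether Gfra1 follows the duct markers. With the mean level of the duct markers as a covariate the log2 fold change of Gfra1 was 1.31 and its standard error widened from 0.191 to 0.485 (adjusted p = 0.373). That covariate separates the groups and left 82 genes called in all. The part of duct cells in the Gfra1 difference was not tested.

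**Figure D4:**
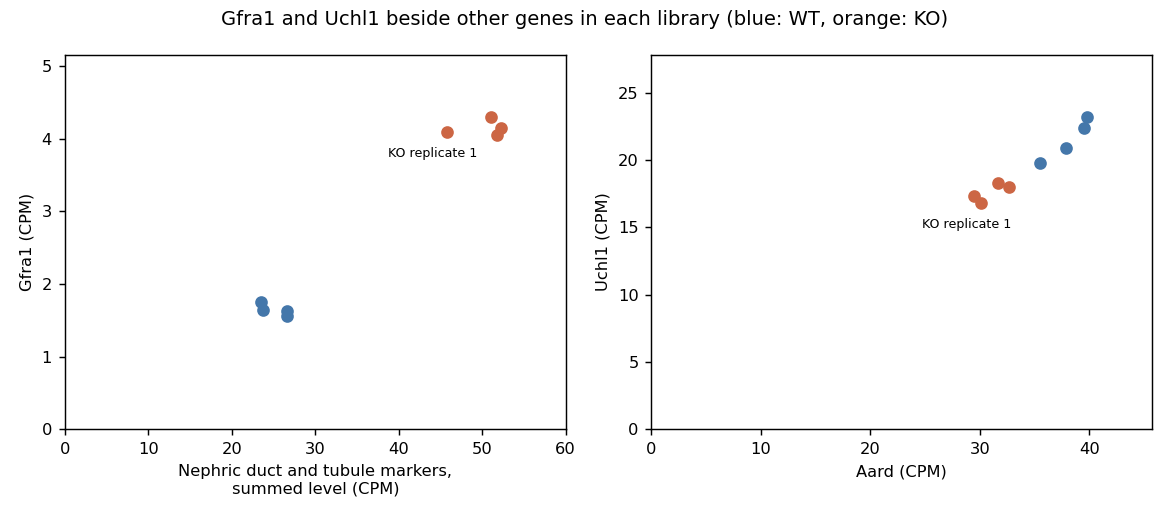
Left, Gfra1 level (CPM, y axis) against the summed level of 10 nephric duct and tubule markers (CPM, x axis), and right, Uchl1 level against that of Aard, in each WT-labelled (blue) and KO-labelled (orange) library. In both panels the groups separate on both axes. KO replicate 1 has the lowest duct marker level of its group (45.73 CPM) and a Gfra1 level of 4.10 CPM, which rests on 67 counts.

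Neurons, glia and endothelium are also known to express members. Of 9 markers of autonomic and enteric neurons 4 passed the filter and 0 were called (0 at an unadjusted p under 0.05; DESeq2 and limma voom also called 0). Per length Uchl1, at 12.0 CPM per kb, was above Tubb3, the highest of these neuron markers at 3.07. Of the 5 markers of neural crest and glia none of the 3 tested was called (edgeR; 0 at an unadjusted p under 0.05; DESeq2 and limma voom also called 0), among them Sox10, the neural crest factor gene, at 2.31 CPM per kb. The endothelial markers were higher with the KO label, at a summed 190.9 to 196.9 against 166.6 to 183.3 CPM (exact two-sided permutation p = 0.0286, adjusted 0.0490). Of these 6 Kdr, a VEGF receptor gene, rose by 0.22 (edgeR adjusted p = 0.000132), and Pecam1, which encodes an endothelial adhesion protein, by 0.23 (0.0143). Pecam1 lost its call when WT replicate 2 or 4 or KO replicate 1 or 3 was left out (0.0635 to 0.0952) and with DESeq2 (0.0556) or limma voom (0.0674). The part of endothelium in the Bcl6b reads was not tested.

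Among the 6 Sertoli markers, Aard fell by 0.30 on the log2 scale (edgeR adjusted p = 2.16e-05) and 5 did not pass, with Amh at -0.01 and Sox9, the Sertoli cell factor gene, at -0.09. The Leydig cell markers were lower, with 4 of 6 called, at a summed 2866 to 2904 CPM in WT-labelled and 2610 to 2654 in KO-labelled libraries (exact permutation p = 0.0286, adjusted 0.0490). The 8 germ cell markers summed to 160.8 to 179.1 CPM in WT-labelled and 165.9 to 170.2 in KO-labelled libraries, with no separation (exact permutation p = 0.743, adjusted 0.810). Of these 8 Dazl, an RNA-binding protein gene of germ cells, rose by 0.37 (edgeR adjusted p = 6.24e-05) and 7 did not pass. At an unadjusted edgeR p under 0.05 there were 3 of the 8, beside 3618 of all 23190 genes tested. Besides Dazl these were Dnd1 (-0.33, edgeR adjusted p = 0.0915) and Tdrd9 (-0.15, 0.0652), both lower with the KO label.

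Summed levels of the blood and muscle lists were lower with the KO label, while 3 of 6 erythroid, 2 of 4 muscle and 0 of 3 macrophage markers tested were called lower (the macrophage count was also 0 at an unadjusted p under 0.05 and 0 by DESeq2 and limma voom). The 6 erythroid markers summed to 132.1 to 137.6 CPM in WT-labelled and 61.57 to 64.36 in KO-labelled libraries, and the 5 striated muscle markers to 131.9 to 137.2 and 63.45 to 65.97 CPM. Ttn, the titin gene, made up most of the muscle sum, at 125 ± 2.19 and 57.5 ± 2.41 CPM (SD, n = 4), and Slc4a1, the anion exchanger gene of red cells, was at 9.09 ± 0.81 and 9.80 ± 0.332 CPM. The 6 macrophage markers summed to 10.26 to 11.15 and 8.743 to 9.188 CPM (exact two-sided permutation p = 0.0286 and adjusted 0.0490 for each of these 3 lists). The peritubular and interstitial markers (4346 to 4442 and 4187 to 4400 CPM, adjusted p = 0.190 by the same exact test), the 5 mesothelial markers (18 to 21.73 and 19.37 to 21.42, 0.549), the neuron markers (10.84 to 12.04 and 9.532 to 10.94, 0.0857) and the glia markers (17.06 to 22.11 and 18.1 to 20.92, 0.971) overlapped between the groups. Scaled by library totals alone, the peritubular and interstitial list (-0.05 on the log2 scale) and the neuron list (-0.14) passed the same exact test, at an adjusted p of 0.0381. The part of these cells in the differences of Gfra1 and Uchl1 was not tested.

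The genes whose levels over the 8 libraries were nearest to Gfra1, by the mean absolute difference of log2 CPM centred on each gene's own mean, came from 17591 genes at or above an average of 1 on the log2 CPM scale. They were Rprl3, a noncoding RNase P RNA-like gene, at a difference of 0.0636, Egfl6, a gene of a basement membrane protein, at 0.120, Adgrg2, a receptor gene of efferent ducts, at 0.139, Npnt, the nephronectin gene, at 0.165, and Krt18, a keratin gene of simple epithelia, at 0.168. These 5 rose by 1.39, 1.10, 1.35, 0.97 and 1.01 on the log2 scale. Nearest to Uchl1 was Aard, the Sertoli cell gene, at a difference of 0.0310. It was followed by Idnk, a gluconate kinase gene that was not called (0.0362), Mgst1, a glutathione transferase gene (0.0407), Rbm38, an RNA-binding protein gene (0.0425), and Hsdl2, a dehydrogenase-like gene (0.0425), whose log2 fold changes ran from -0.30 to -0.28. The ratio of Uchl1 to Aard in CPM ran from 0.553 to 0.583 in the WT-labelled and from 0.552 to 0.587 in the KO-labelled libraries, a proportion that overlapped between the groups. Aard is named for this likeness, so its ratio is a description.

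Of 10 other GDNF family ligand and receptor genes 8 were tested and 1 rose, with a median log2 fold change of 0.10. That is 12.5% of those tested, beside 5.14% of all genes tested that were called. The riser was Ncam1, a neural cell adhesion molecule that can act as a RET-independent GDNF receptor, from 142 ± 2.73 CPM in WT-labelled to 159 ± 4.76 CPM in KO-labelled libraries (SD, n = 4), a log2 fold change of 0.16 (edgeR adjusted p = 7.33e-06). Gfra2, the co-receptor gene for neurturin, had a log2 fold change of 0.01 (edgeR adjusted p = 0.976) at 7.60 ± 1.54 CPM in WT-labelled and 7.69 ± 0.373 CPM in KO-labelled libraries. Gfral, the brainstem receptor gene of GDF15, had no count in any library, and Gfra3 was too low to be tested, at 3 to 9 counts.

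Of 28 adaptor and kinase genes that carry the RET signal 1 rose, 1 fell and 26 did not pass, with a median log2 fold change of -0.03. Called were 7.14% of these genes, beside 5.14% of all genes tested. Grb7, an adaptor gene that binds RET and other receptor kinases, rose from 1.83 ± 0.449 to 3.37 ± 0.308 CPM (SD, n = 4), by 0.87 on the log2 scale (edgeR adjusted p = 0.000840). Mapk3, which encodes the kinase ERK1, fell by 0.28 (adjusted p = 0.000137). Of 11 feedback and target genes of ERK signalling 2 changed and 9 did not pass (18.2% called, beside 5.14% of all genes tested). The immediate-early gene Fos changed by 0.12 (edgeR adjusted p = 0.000897). Egr1, also an immediate-early gene, changed by -0.08 (edgeR adjusted p = 0.0276). Its adjusted p was 0.0568 to 0.162 when WT replicate 1, 2 or 3 or KO replicate 2, 3 or 4 was left out. Egr1 was called in 7 of 19 alternatives, and not with DESeq2 (0.0520), upper-quartile scaling (0.0607), no filter on low counts (0.111) or ordinary dispersions (0.0640).

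Of 11 genes known to respond to GDNF in stem cell cultures 9 were tested and 1 rose. That is 11.1% of those tested, beside 5.14% of all genes tested that were called. The riser was Lhx1, a LIM homeobox gene that also acts in the nephric duct, from 1.33 ± 0.254 to 2.89 ± 0.259 CPM (SD, n = 4), by 1.13 on the log2 scale (edgeR adjusted p = 5.71e-05). The other 8 did not pass, and Nanos2, a male germ cell gene of stem cell self-renewal, had too few reads to be tested, at 5 to 12 counts.

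Of 30 other genes of undifferentiated spermatogonia 25 were tested, 5 rose, none fell and 20 did not pass, with a median of 0.07. Over all genes tested 5.14% were called. At an unadjusted edgeR p under 0.05 there were 13 of the 25, in both directions, beside 3618 of all 23190 genes tested. Besides the 5 called, Sohlh1 (-0.45), Plvap (-0.27), Utf1 (-0.23), Dmrt1 (-0.22) and Adgra3 (-0.08) were lower with the KO label. Mcam (0.14), Itga6 (0.07) and Itgb1 (0.05) were higher. Epcam and Cdh1, adhesion genes of stem cells and of epithelia, rose by 0.90 (edgeR adjusted p = 2.14e-16) and 0.97 (6.79e-14). Erbb3, a neuregulin receptor gene, rose by 0.53 (adjusted p = 6.93e-05). Lin28a, an RNA-binding protein gene of stem cells, rose by 0.47 (adjusted p = 0.00527; 0.0537 without WT replicate 4 and 0.0508 without KO replicate 4). Sohlh2, a spermatogonial transcription factor gene named after its value was seen, rose by 0.83 (edgeR adjusted p = 0.0145). The Sohlh2 call did not hold when WT replicate 3 (0.0928) or KO replicate 1 (0.182) was left out, nor with DESeq2 (0.0577) or limma voom (0.0713).

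Epcam, Cdh1, Erbb3, Lhx1 and Grb7 were higher in the libraries in which the duct and tubule markers were higher. With those markers as a covariate the log2 fold change was 0.60 for Epcam (standard error 0.249) and 0.61 for Cdh1 (standard error 0.290). It was 0.62 for Erbb3 (standard error 0.278), 1.16 for Lhx1 (0.572) and 1.146 for Grb7 (0.511). None of the 5 was then called (edgeR adjusted p 0.472 to 0.616), with standard errors wider than without the covariate. That covariate separates the groups and left 82 genes called in all, so these estimates do not tell the 5 genes apart. The part of duct cells in these differences was not tested.

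**Figure D5:**
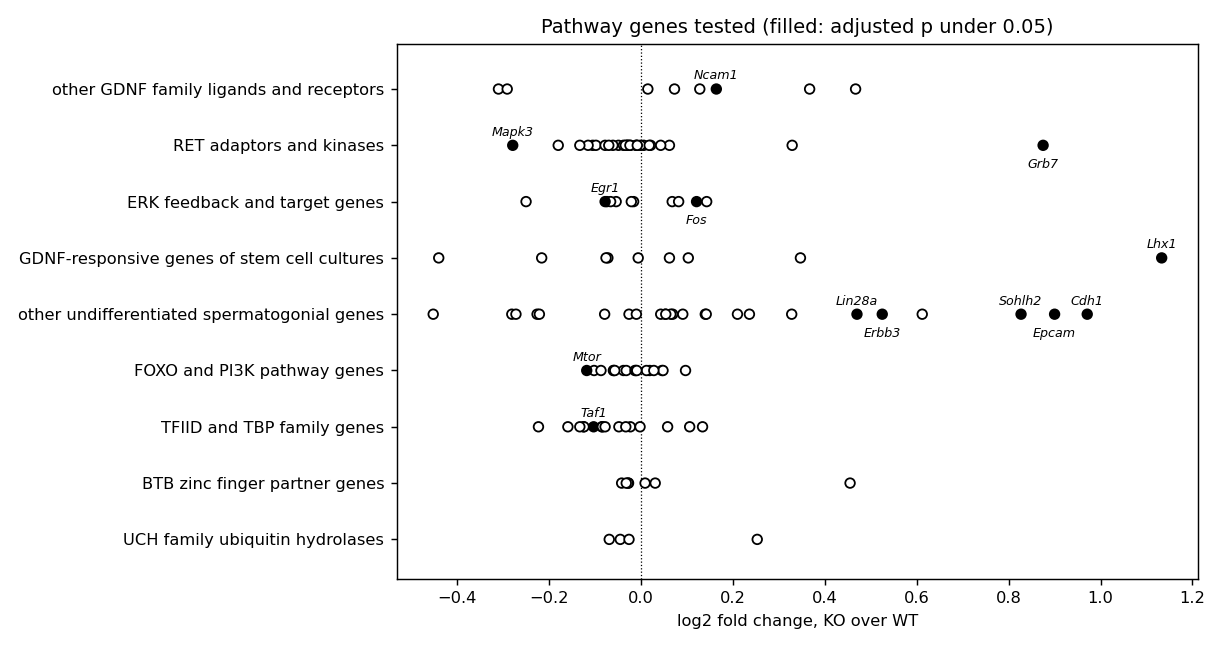
Log2 fold change of each pathway gene tested, KO-labelled over WT-labelled libraries (x axis), by list (rows), with genes at an adjusted p under 0.05 filled and named. Lhx1 (1.13), Cdh1 (0.97), Epcam (0.90), Grb7 (0.87) and Sohlh2 (0.83) lie farthest from 0, and all are on the higher side.

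Among genes that work with Foxo1, Taf4b, Zbtb16 and Uchl1 or resemble them, 2 fell and none rose. Called were 5.88% of the FOXO and PI3K genes tested and 6.25% of the TFIID and TBP genes tested. None of the BTB partner or Uchl1 family genes was called. Over all genes tested 5.14% were called, so these counts are near that share. Of 17 genes of the FOXO and PI3K pathway 1 fell and 16 did not pass. The faller was Mtor, the growth kinase gene, from 164 ± 4.41 to 151 ± 4.4 CPM (SD, n = 4), a log2 change of -0.12 (edgeR adjusted p = 0.00283). Of 18 TFIID and TBP family genes 16 were tested and Taf1, a gene of the TFIID core, fell by 0.10 (edgeR adjusted p = 0.0170) though its groups overlapped. The Taf1 call did not hold when WT replicate 3 (0.0800), KO replicate 1 (0.0686) or KO replicate 4 (0.230) was left out, nor with DESeq2 (0.0874) or limma voom (0.0912). None of the 7 corepressor and partner genes of BTB zinc finger proteins was called by edgeR, DESeq2 or limma voom. At an unadjusted edgeR p under 0.05 there were 2 of them, beside 3618 of all 23190 genes tested. Ncor1, a nuclear corepressor gene, had a log2 fold change of 0.03. None of the 4 other ubiquitin hydrolase genes of the Uchl1 family was called by edgeR, DESeq2 or limma voom (0 at an unadjusted p under 0.05), with Bap1 at -0.03 and Uchl5 at -0.04.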

How the data were processed

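Total RNA, 1 ng per library, was made into stranded libraries with a low-input total RNA kit, per the labels' protocols. The authors deposited 1 table of raw counts of reads per gene, with each gene's exon length, which gave CPM per kb. STAR 2.5.2b, Subread, featureCounts, DESeq2 and the build GRCm38 are named in the submitters' processing notes without roles; strand and multi-mapping settings are not given in the sources used here. Symbols of 55141 of 55487 genes came from a reference table of gene names, and coordinates are those of the deposited table.

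Counts were tested in R 4.3.3 with edgeR 4.0.16: filterByExpr, TMM scaling and the robust quasi-likelihood test, two-sided, KO against WT, adjusted over all genes tested. CPM use the TMM-scaled library sizes. Log2 CPM for the likeness of patterns used a prior count of 2. Summed CPM of 12 marker lists were compared by exact permutation over 70 splits. Genes named were all members, markers, and from each pathway list up to 4 called genes with the smallest p, or the 2 most abundant where none was called. Some genes under this rule are not reported here. Alternatives were other scalings and filters, DESeq2 1.42.0, limma 3.58.1 voom, a fit with ordinary dispersions, a block for the replicate number, marker levels as covariates and each library left out. The test was checked on simulated data, with changed genes drawn above an average log2 CPM of 1. It recovered 44% of 1.25-fold, 92% of 1.5-fold, 94% of 2-fold and 100% of 2.5-fold changes. Of its 179 calls 14 were of unchanged genes. Ret (0.98) and Zbtb16 (0.79) were below that level. Members and lists were chosen with earlier results of these data known.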

Additional observations from a re-analysis of the deposited data

Results flagged for a closer look

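Over 44 groups of 4 libraries, the members and the summed levels of the marker lists in each label, 2 held a library far from the others of its group, where chance flags about 5% of groups. The summed level of nephric duct and tubule markers in KO replicate 1 was 45.7 CPM, against 51.1 to 52.2 CPM in the other KO-labelled libraries. Gfra1 in KO replicate 1 was 4.10 CPM, from 67 counts. The summed level of macrophage markers in WT replicate 2 was 11.2 CPM, against 10.3 to 10.4 CPM in the other WT-labelled libraries. No member had a library flagged in this way.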

How the results depend on the processing

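Of 19 alternatives, Gfra1 was called in 18 (log2 fold change 1.31 to 1.36) and Uchl1 in 17 (-0.33 to -0.26). With duct and tubule markers as a covariate, which separates the groups, 0 members and 82 genes were called. With somatic and blood markers as a covariate 512 genes were called, Uchl1 lost its call and Etv5 gained one (0.34, adjusted p = 0.0139). That covariate averages all marker lists other than germ cells, some of which rose and some fell. Centred, it ran only from -0.042 (KO replicate 4) to 0.063 (WT replicate 3) on the log2 scale. It does not measure the content of any single cell type. DESeq2 called 785 genes, against 1193. Higher and lower calls were 544 and 649, against 426 and 836 with library totals alone and 633 and 555 with upper-quartile scaling. With the replicate number as a block 1249 genes and 2 members were called, and no member's call changed. Same-numbered libraries deviated with correlations of -0.00971 to 0.0215, and 3 of 8 were nearest to their own number, so the numbers do not pair the libraries. Leaving out each library gave 898 to 1040 genes and 2 members each time.

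The direction turned for members that were not called: Ret (-0.413 with duct and -0.045 with somatic and blood markers as a covariate), Bcl6b (-0.046, somatic and blood) and Foxo1 (0.011 and 0.012). It also turned for Mapk3 (0.015) and Hsd3b1 (0.072) with duct markers, and the cause was not tested. Against 7 marker lists called, 0 were called with upper-quartile scaling, 0 to 7 with a library left out and 9 with library totals alone. Where 0 were called, 6 lists were at the smallest exact p of 0.0286, which adjusts to 0.0571 over 12 lists. The germ cell list ran from -0.037 to 0.014 (without WT replicate 4) and the neural crest and glia list from -0.081 to 0.044 with a library left out, turning to 0.044, 0.01 and 0.006 without WT replicate 3, KO replicate 1 and KO replicate 3. Ret and Zbtb16 had 20 to 49 counts per library, and their intervals reach a 1.70-fold and a 2.14-fold rise. The CV of Ret in the WT-labelled libraries was 34.5%, against 4.62% for Gfra1 at 27 to 33 counts. Counts this low vary by chance in counting alone, so these CVs do not rank the genes by reproducibility.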
